A study of Homo sapiens with 2 samples.

Results

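The genes described here are 9 outputs and brakes of the RAS-ERK cascade, namely SPRY2, SPRY4, SPRED1, SPRED2, ETV4, ETV5, PHLDA1, IER3 and MAPK3. They were taken by name after gene identifiers without their version had been matched to symbols, and all 9 were among the 13017 genes listed for both libraries. All 9 also had a mean of at least 1 FPKM (a level scaled by gene length and by the fragments mapped in the library), as did 10925 genes in all. The list was drawn up with earlier results of these data known, so every value below is a description and no test is attached to it.

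Each of the 2 libraries came from 468 cells, an epithelioid human breast cancer line kept in L15 medium with 10% fetal bovine serum. In the knockdown library the antisense RNA THAP7-AS1 had been targeted for 48 h with a Smart Silencer, a product that mixes several silencing oligonucleotides, and the control library is labelled si-NC. Both samples carry the silencer in their treatment label, and the groups rest on the genotype label instead. There is 1 library per group and hence no replicate check for any difference, and a fixed size, at least 1.5-fold on the scale of FPKM + 1, stands in for a test. The level of THAP7-AS1 is not analysed here and cannot serve as a check of the labels.

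In this cascade a growth factor receptor recruits the adaptor GRB2 and the exchange factor SOS, RAS is loaded with GTP, and RAF, MEK and ERK kinases are activated in turn. ERK then phosphorylates transcription factors of the ETS and AP-1 classes, and among the genes induced are its own brakes. Sprouty and SPRED proteins act at the level of RAS and RAF, and the PEA3 factors ETV4 and ETV5 carry the signal into transcription, so the RNA levels of these genes are widely used as a readout of ERK activity in epithelial tumours.

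The value of 1 fragment was read from the lowest levels of genes with a single annotated transcript, within a set window that bounds the answer. It corresponded to about 11200000 fragments after knockdown and 10900000 with si-NC. Of 10 breast epithelial markers 9 had a mean of at least 1 FPKM, CLDN4 being the exception at 0.233 and 0.303 FPKM, and all 6 markers of basal breast carcinoma did, with EGFR at 258 FPKM after knockdown and 336 FPKM with si-NC. Of 15 fibroblast, endothelial and leukocyte markers only 4 were listed. COL1A1, KDR and LYZ were between 0.866 and 1.39 FPKM in both libraries, while CD14 was at 10.3 and 9.50 FPKM; its part in any result was not tested.

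None of the 9 genes differed by 1.5-fold between the libraries, in which a lower level in every cell and a loss of expressing cells cannot be told apart. Over all 10925 genes, 5.45% were at least 1.5-fold apart in either direction, and 0 of 9 is a share near that background. The log2 ratios of FPKM + 1, knockdown over control, ran from -0.25 for SPRY4 to 0.23 for IER3. Of the 9 ratios 6 were below 0 and 3 above, with a median of -0.05, against a median of 0.02 over all genes, 46.9% of which were below 0.

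**Figure D1:**
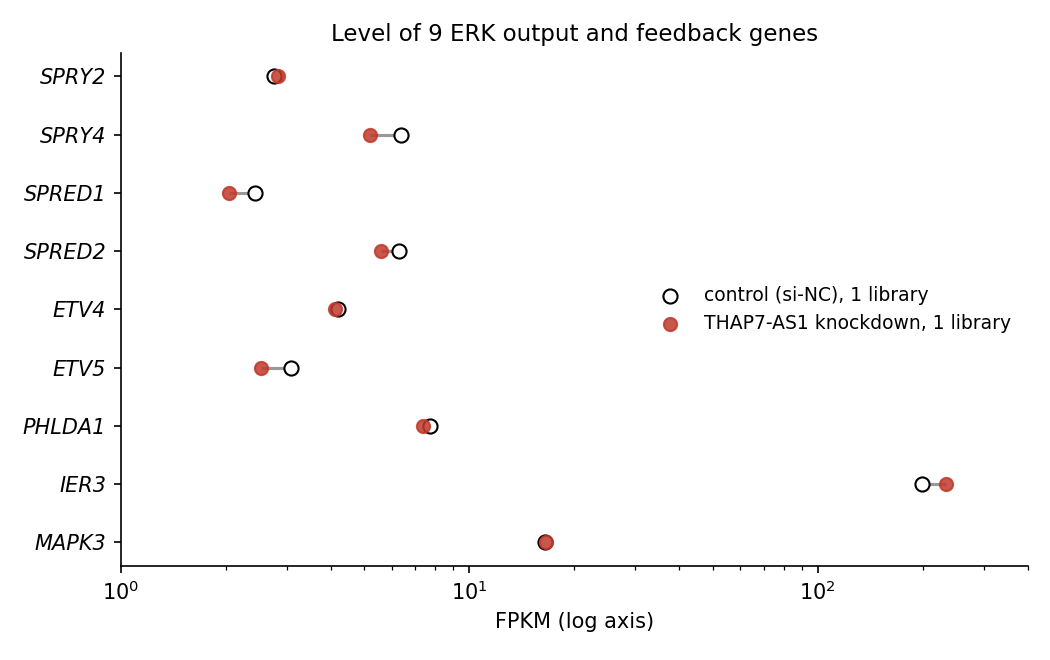
FPKM of each of the 9 genes on a log axis, with the control library as an open circle and the knockdown library as a filled circle, 1 library each. The paired circles lie close together for every gene, and IER3, at 199 and 233 FPKM, stands far to the right of the others.

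The order of levels was much the same in both libraries. IER3 was highest, above 99.3% of the 13017 listed genes with si-NC and 99.5% after knockdown. MAPK3 came next, above 80.8% and 80.7% of genes, and PHLDA1 followed, above 61.7% and 60.2%. SPRY4, SPRED2 and ETV4 lay near the middle of all genes, and SPRY2, ETV5 and SPRED1 in the lower part, SPRED1 being lowest at 2.43 FPKM with si-NC and 2.05 after knockdown. SPRY4 and SPRED2 exchanged places between the libraries, as did SPRY2 and ETV5, so the order within those pairs is not settled. IER3 alone made up 80.1% of the summed FPKM of the 9 genes with si-NC and 83.4% after knockdown.

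The Sprouty proteins are membrane-associated inhibitors induced by the signal they restrain. SPRY2 (ENSG00000136158.11_3, chromosome 13) was at 2.84 FPKM after knockdown and 2.75 FPKM with si-NC, a log2 ratio of 0.03. SPRY4 (ENSG00000187678.8_3, chromosome 5) was at 5.19 against 6.36 FPKM, a log2 ratio of -0.25 and the lowest of the 9. The values of SPRY4 thus lay further apart than those of SPRY2, and the quotient of SPRY4 over SPRY2, which does not depend on library scaling, was 1.83 after knockdown and 2.31 with si-NC. Of all genes, 28.3% had a log2 ratio further from 0 than that of SPRY4. About 138 and 165 fragments stood behind the SPRY4 values, and without the added 1 its log2 ratio was -0.29 with a 95% counting interval from -0.62 to 0.03. For SPRY2, with about 86 and 81 fragments, that interval ran from -0.39 to 0.48, so a difference of the size seen in SPRY4 was not detectable in SPRY2 at this depth. These intervals cover counting error only, and not the spread between cultures.

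SPRY1, a paralog outside the list of 9, had a log2 ratio above 0, as SPRY2 did at 0.03, whereas SPRY4 was at -0.25. It was at 4.38 FPKM after knockdown against 2.62 FPKM with si-NC, a log2 ratio of 0.57 that lay just under the 1.5-fold limit. Its side of that limit depended on the added 1: without it the log2 ratio was 0.74, past 1.5-fold, with a counting interval from 0.32 to 1.16 on about 122 and 72 fragments. Relative to SPRY4, SPRY1 stood at 0.843 after knockdown and 0.412 with si-NC. The summed FPKM of SPRY2 and SPRY4 in the knockdown library was 88.2% of that in the control library, but with SPRY1 included the sum was 105.9%. SPRY3 is not analysed here.

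SPRED1 and SPRED2 are Sprouty-related proteins that bring the RAS GTPase-activating protein neurofibromin to the membrane. SPRED1 (ENSG00000166068.12_3, chromosome 15) was at 2.05 FPKM after knockdown and 2.43 FPKM with si-NC, a log2 ratio of -0.17. SPRED2 (ENSG00000198369.9_3, chromosome 2) was at 5.57 against 6.29 FPKM, a log2 ratio of -0.15. Both were a little lower in the knockdown library and in nearly the same proportion, with SPRED2 over SPRED1 at 2.71 and 2.59. Without the added 1 the counting intervals ran from -0.53 to 0.04 for SPRED1 and from -0.42 to 0.07 for SPRED2. The third paralog, SPRED3, was at 0.768 against 0.118 FPKM; its mean lies below 1 FPKM and only about 41 and 6 fragments stand behind it, so it entered no count. NF1, which encodes neurofibromin, had a log2 ratio of -0.18.

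Because ETS and AP-1 factors stand at the end of the cascade, their short recognition sequences were looked for in the promoter windows of RefSeq (GRCh38.p14, from 250 bases before to 50 after a transcription start), which held 9 windows for 6 of the 9 genes. The ETS core CGGAAG, on either strand, was found for 2 of the 6 genes, SPRED2 and PHLDA1, and for 22.6% of all 27305 genes with a window (19.5% of 35116 windows). The AP-1 site TGANTCA was found for 1 of the 6, SPRED2, and for 9.37% of all genes (7.71% of windows). Neither the cyclic AMP response element TGACGTCA nor TGAATGAA and TGAATGGA, the only octamers of the repressor CIC searched, was found for these 6 genes. The shares over all genes were 2.25%, 2.03% and 1.27% (1.85%, 1.65% and 1.03% of windows). ETV4, ETV5 and IER3 had no window, so none of these motifs was looked for in their promoters. Among the paralogs, SPRY1 had an ETS core, SPRED3 an AP-1 site and TGAATGAA, and ETV1 TGAATGGA. None of the printed matches overlapped another. The windows below show where these letters lie in the genes described here and in their paralogs, 5′ to 3′ on the gene's strand with the motif in capitals.
SPRED2, ETS core on the opposite strand, chr2:65432550-65432579, minus strand: gctgggaagacgtcatcgCTTCCGccctac
SPRED2, AP-1 site at an alternative start, chr2:65366766-65366795, minus strand: taaccctcggaTGACTCAtccggtacaatg
PHLDA1, ETS core, chr12:76031806-76031835, minus strand: ggggaacgagcgCGGAAGcaagtgggcggc
SPRY1, ETS core, chr4:123398308-123398337, plus strand: gccctccgcagcCGGAAGggggccgcgggg
SPRED3, AP-1 site, chr19:38389720-38389749, plus strand: ccgttgctgggTGACTCAgtgagctttgca
SPRED3, CIC octamer, chr19:38389588-38389617, plus strand: cttgatttttgTGAATGAAatgctctctgg
ETV1, CIC octamer, chr7:13991532-13991561, minus strand: ccggaattttgTGAATGGAgacgaaaggtg
The same alternative start of SPRED2 has a further AP-1 match, TGAATCA, that begins 35 bases into the transcript. A match is a description of the sequence and does not show that a factor binds there.

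ETV4 and ETV5 are PEA3-group ETS transcription factors whose proteins and genes are both under the control of ERK. ETV4 (ENSG00000175832.12_3, chromosome 17) was at 4.13 FPKM after knockdown and 4.20 FPKM with si-NC, a log2 ratio of -0.02. ETV5 (ENSG00000244405.7_3, chromosome 3) was at 2.53 against 3.08 FPKM, a log2 ratio of -0.21, the second lowest of the 9. ETV4 was 98.2% and ETV5 82.3% of its control level, and ETV4 over ETV5 was 1.63 after knockdown and 1.37 with si-NC. Without the added 1 the counting interval of ETV5 ran from -0.64 to 0.07 and that of ETV4 from -0.42 to 0.37. ETV5 shares exons on the same strand with DGKG in the gene models of GENCODE 29, and ETV4 overlaps DHX8 on the opposite strand. DHX8 was at 6.25 and 6.11 FPKM, and DGKG is not analysed here. The third PEA3 factor, ETV1, was at 0.571 and 0.634 FPKM.

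PHLDA1 and IER3 are early response genes, the former encoding a pleckstrin homology-like protein and the latter a protein that acts in cell survival and prolongs ERK phosphorylation. PHLDA1 (ENSG00000139289.13_2, chromosome 12) was at 7.38 FPKM after knockdown and 7.70 FPKM with si-NC, a log2 ratio of -0.05. IER3 (ENSG00000137331.11_2, chromosome 6) was at 233 against 199 FPKM, a log2 ratio of 0.23 and the highest of the 9. With about 3242 and 2707 fragments behind it, IER3 was the 1 gene of the 9 whose counting interval did not span 0, at 0.16 to 0.31 without the added 1. The intervals of SPRY4 and SPRED1 ended just above 0, at 0.03 and 0.04, and their widths rest on approximate fragment estimates. The count of 1 could therefore change with another gene length or depth. The counting error of IER3 was 0.04 (standard error of the log2 ratio), while the ratios of the 243 genes of at least 100 FPKM spread with an SD of 0.14 estimated from the median absolute deviation. Of all genes, 31.0% had a log2 ratio further from 0 than that of IER3. Antisense RNAs overlap both genes in GENCODE 29 and are not analysed here, and without the strandedness of the libraries their reads cannot be told apart from those of IER3 and PHLDA1.

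MAPK3 encodes ERK1, the kinase at the end of the cascade, and is no feedback target in the sense of the others. This gene (ENSG00000102882.11_3, chromosome 16) was at 16.6 FPKM after knockdown and 16.5 FPKM with si-NC, a log2 ratio of 0.01 that took the opposite sign when all genes were centred on their median or rescaled. Of all genes, 95.5% had a log2 ratio further from 0 than that of MAPK3. About 345 and 336 fragments stood behind its values. The counting interval of MAPK3 without the added 1 was from -0.20 to 0.23.

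**Figure D2:**
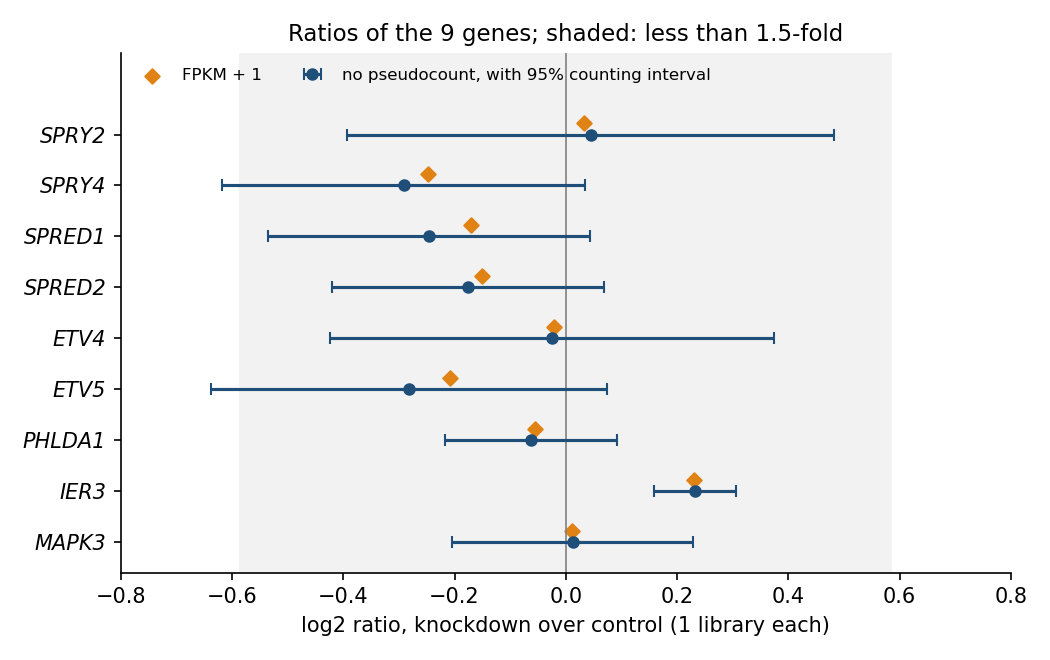
Log2 ratio of knockdown over control for each of the 9 genes: circles give the ratio without an added 1, with its 95% counting interval, diamonds the ratio of FPKM + 1, and the shaded band differences below 1.5-fold. All 9 ratios fall inside the band. With the approximate fragment estimates used, the interval of IER3, from 0.16 to 0.31, is the one that does not span 0.

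**Figure D3:**
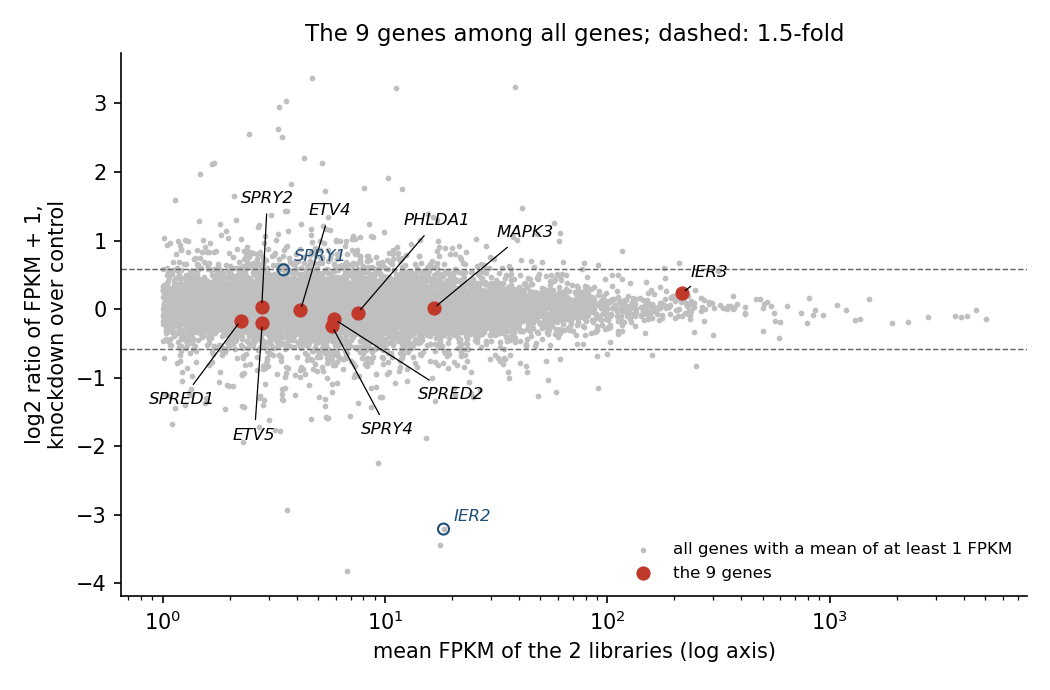
Log2 ratio of FPKM + 1 against the mean FPKM (log axis) of 10925 genes in grey, with the 9 genes filled in and SPRY1 and IER2 circled, and dashed lines at 1.5-fold. The 9 genes lie inside the bulk of all genes, SPRY1 near the upper line at 0.57 and IER2 far below at -3.21.

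The other genes of the pathway were grouped by role into 9 lists, which hold 103 genes besides members with a mean of at least 1 FPKM, called measured here. Of the 103, 4 passed 1.5-fold upward and 4 downward, together 7.77%, beside 2.98% higher and 2.46% lower over all genes. Their median log2 ratio was -0.05, with 56 of 103 below 0. The lists were chosen with results of these data known, and nothing is read from the 7.77%. Of the genes that these lists hold and the text names, EGFR, NF1, IER2, DUSP6, ELK3, RASA1, SIAH2 and DYRK1A are overlapped by a gene on the opposite strand in GENCODE 29, and reads of the 2 strands cannot be told apart.

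Other known ERK output genes had a median log2 ratio of -0.16, with 13 of 18 measured below 0, while the 9 genes had -0.05. Over all genes 46.9% were below 0 and 5.45% passed 1.5-fold in either direction. This list too was chosen with results of these data known, and nothing is read from its share below 0. IER2, an immediate early gene named like IER3 for its rapid induction, was at 2.77 FPKM after knockdown and 33.9 FPKM with si-NC, lower by 9.24-fold on the scale of FPKM + 1. The growth regulator MYC was at 1.94 against 3.43 FPKM, a log2 ratio of -0.59 that lay just past the 1.5-fold limit. Only about 30 and 51 fragments stood behind MYC, and without the added 1 its counting interval ran from -1.47 to -0.17. PPP1R15A, which directs protein phosphatase 1 to the translation factor eIF2, was the gene past 1.5-fold in the other direction, at 37.6 against 21.7 FPKM. The remaining 15 measured genes were less than 1.5-fold apart, among them DUSP6, the cytoplasmic ERK phosphatase, at 1.35 against 1.64 FPKM. Of the ERK output genes, 2 early response genes with similar names stood far apart in ratio, IER2 at -3.21 and IER3 at 0.23.

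In the core cascade from RAS to ERK, 14 of 15 measured genes were less than 1.5-fold apart and the median was -0.02. The exception was MRAS, a RAS relative that works with SHOC2 in the activation of RAF, at 5.65 FPKM after knockdown against 2.61. Among receptors, adaptors and exchange factors the median was -0.14, with 7 of 12 below 0. GRB2, which couples receptors to SOS, was at 30.1 against 16.4 FPKM, a log2 ratio of 0.84 on about 1091 and 582 fragments. MRAS and GRB2, the genes of these 2 lists past 1.5-fold, were both higher in the knockdown library. Below 0 were 8 of 15 genes in the first list and 7 of 12 in the second. Over all genes 5.45% passed 1.5-fold in either direction, and nothing is read from the direction of 2 genes.

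Of the 8 measured RAS GTPase-activating proteins and regulators of RAS turnover none was 1.5-fold apart, against 5.45% of all genes. Their median was 0.11, with RASA3 highest at 4.83 against 3.98 FPKM and RASA1 lowest at 8.63 against 10.1. Scaffolds and anchors had a median of 0.01 and 0 of 16 past 1.5-fold, and in lists this small 0 is near that share. LAMTOR3, which tethers MEK and ERK on endosomes, was highest at 3.71 against 2.41 FPKM. Without the added 1 its log2 ratio was 0.62, past 1.5-fold, with a counting interval from 0.28 to 0.96. IL17RD, the feedback inhibitor Sef, was lowest at 1.57 against 1.98.

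Among kinases and transcription factors that ERK phosphorylates or that act downstream of it, the median was -0.03 and 7 of 14 were below 0. MKNK2, a kinase that phosphorylates the translation factor eIF4E, was at 4.90 FPKM after knockdown against 2.53, and ELK3, an ETS factor that acts with SRF, was at 1.43 against 3.28. These genes differed in opposite directions, with log2 ratios of 0.74 and -0.82. In the list of PEA3 factors and their regulators, ATXN1, a partner of the repressor CIC that keeps PEA3 genes silent, was at 2.20 against 4.09 FPKM, a log2 ratio of -0.67. CIC itself was at 16.2 and 15.5 FPKM. The proteins that bind or degrade Sprouty had a median of -0.06 with 0 of 15 past 1.5-fold, near the 5.45% of all genes. They ran from the ubiquitin ligase gene SIAH2 at 15.2 against 10.4 FPKM to the kinase gene DYRK1A at 4.56 against 6.37.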

How the data were processed

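The authors deposited 1 table per library with an FPKM value per gene, per the file headers. The build hg19 and the tools HISAT2 2.0.5, StringTie and cutadapt come from the submitters' processing notes. Annotation and strandedness: not given in the sources used here. Identifiers without version were matched to symbols. GENCODE 29, on another build, supplied gene models by identifier only. Log2 ratios are log2((knockdown FPKM + 1)/(control FPKM + 1)) over genes whose 2 values average 1 FPKM or more, so folds of low genes are understated. The value of 1 fragment was the median of FPKM times length between 80 and 100 in single-transcript genes (11 and 8 genes), a window set after the values had been seen. Fragments per gene used the length of the principal transcript, and the 95% counting intervals (Poisson error of both estimates, normal on the log scale) are therefore approximate. All 9 members are named; of each list the genes past 1.5-fold are named, or else its highest and lowest. SPRY1, SPRED3 and ETV1 are named as paralogs (another that the rule takes is not reported here), and NF1, CIC and DUSP6 were chosen after their values were seen. Members and lists were chosen with earlier results of these data known. Computations in Python 3.11.15, numpy 2.4.6 and pandas 2.3.3 were tested on simulated data with planted differences larger than 1.5-fold. Recovery of the value of 1 fragment could not fail in that simulation. The 1.5-fold limit and the counting intervals were not tested in this way.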

Additional observations from a re-analysis of the deposited data

How the results depend on the processing

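No paired analysis was possible because each group had 1 library, and no alternative measures the spread between cultures. The count of members at least 1.5-fold apart was 0 under every alternative run. Over 54 values of the 9 genes under another pseudocount or scaling, 0 moved by more than their counting interval. Of the 54, 3 changed sign, all of MAPK3. For genes with few fragments that interval is wide beside such shifts, so the 0 says little about them. SPRED1 ranged from -0.25 to -0.08 and still counted as unmoved. Over all genes, 326 lay above and 269 below the 1.5-fold limit. These counts were 547 and 405 when 0.1 was added to FPKM, 88 and 96 when 5 was added, and 168 and 161 among genes averaging 5 FPKM or more. For the 2-fold limit the counts were 66 and 73, which turned into 140 and 126, 19 and 14, and 31 and 36 in that order, and into 36 and 44 without genes that share exons, a setting chosen after seeing the data. Adding more to FPKM draws low ratios toward 0, and a filter leaves fewer genes, by construction. Among genes averaging 5 FPKM or more the list medians became 0.046 for PEA3 factors and their regulators and -0.058 for RAS GTPase-activating proteins. That of kinases and factors downstream of ERK became -0.16. Without a filter that of adaptors and exchange factors became -0.040. Fewer or more genes entered these medians. The median of scaffolds changed sign, to -0.01, when genes were centred or rescaled without the 100 most abundant genes. Depth limits SPRY2, ETV4 and ETV5 most among the 9.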
